A study of Mus musculus with 4 samples.

Results

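The tumour suppressor gene Trp53 and 7 genes that the p53 protein is known to switch on (Cdkn1a, Mdm2, Ccng1, Gtse1, Bax, Gadd45a and Sesn2) were followed in NIH 3T3 cells after knockdown of selenoprotein T. The 8 genes were listed by name, and every probe that the array annotation assigns to one of them was taken from the deposited table, which names 12347 genes in all. The list gave 12 probes of 6 genes. 10 of these probes, from 5 genes (Cdkn1a, Mdm2, Ccng1, Gtse1 and Gadd45a), had a value on all 4 arrays and entered the tests, and the single Sesn2 probe had a value on 1 array. Trp53 and Bax carried no named probe, so the level of p53's own mRNA and of its best known pro-apoptotic target were not analysed here.

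NIH 3T3 is an established mouse fibroblast line. On each array, Cy5-labelled RNA of cells that carried the pU6-m3 vector with a knockdown insert against Selt (now Selenot, the gene of selenoprotein T) was set against Cy3-labelled RNA of cells with pU6-m3 alone. Within the Selt mRNA, siSelT-1 spans positions 205 to 224 and siSelT-5 positions 971 to 989. Each construct was measured in RNA of 2 separate cultures, on 2 arrays. Knockdown and vector cells alike were selected in 150 µg/ml hygromycin B and kept with 10% serum and 100 nM selenite, so both sides of every ratio share the drug, the vector and the added selenium. The labels do not say whether a stable line was 1 clone or a pool, or whether the arrays shared vector RNA. A value is the deposited log ratio, read as log2 of knockdown over vector; the labels state neither the base nor the direction, so folds and signs rest on this reading. The targeted gene had no named probe, so no check of the knockdown was made. In RNA from whole cultures, a change in every cell and a change in some of them cannot be told apart.

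p53 is a transcription factor that is held low in resting cells because MDM2, the product of one of its own targets, marks it for destruction. DNA damage and other stresses free it from MDM2. It then binds pairs of a short palindromic half-site near its targets and raises genes that stop the cell cycle (p21, encoded by Cdkn1a, and GADD45A), that feed back on p53 itself (MDM2, cyclin G1 and GTSE1), that promote cell death (BAX), or that restrain growth signalling and oxidative damage (sestrin 2). NIH 3T3 cells lack the Cdkn2a locus, whose ARF product restrains MDM2, and they divide readily while keeping a p53 response.

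Matches to the p53 half-site consensus near the starts of the members are shown first. In RefSeq's GRCm38.p6 start windows, which run from 250 bases before to 50 bases after each annotated start, the p53 half-site consensus, 10 bases long and the same on both strands, was found in 7 of 10 member windows and in at least 1 window of 7 of the 8 members. It was found in 8.36% of all 32851 windows, and 9.55% of the 27025 genes with a window held at least 1. The members other than Trp53 were listed as p53 targets, so the share is a description of the list, and a match is not a shown binding site. Trp53, the gene of p53 itself, is among the members with a match. The stretches around the matches of the 5 tested members are given 5′ to 3′ on the gene's strand, with the half-site matches in capitals. Cdkn1a is shown at length because its window alone among the members held 2 half-sites close to each other.
Cdkn1a, chr17:29090729-29090978, plus strand: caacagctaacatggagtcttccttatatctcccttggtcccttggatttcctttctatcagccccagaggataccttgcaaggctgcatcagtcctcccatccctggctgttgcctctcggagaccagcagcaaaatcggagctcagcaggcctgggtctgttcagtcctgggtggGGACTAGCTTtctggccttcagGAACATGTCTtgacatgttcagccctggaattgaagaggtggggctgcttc
Mdm2, chr10:117710905-117710974, minus strand: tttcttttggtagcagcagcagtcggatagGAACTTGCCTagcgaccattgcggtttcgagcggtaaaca
Ccng1, chr11:40755432-40755501, minus strand: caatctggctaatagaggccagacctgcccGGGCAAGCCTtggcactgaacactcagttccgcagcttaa
Gadd45a, chr6:67037408-67037477, minus strand: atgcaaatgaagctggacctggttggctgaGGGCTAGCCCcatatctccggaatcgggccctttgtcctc
Gtse1, chr15:85859945-85859974, plus strand: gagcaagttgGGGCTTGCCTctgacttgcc

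The half-sites in the Cdkn1a stretch lie at positions -73 to -64 and -51 to -42 relative to the start, with 12 bases between them. Pairs at most 13 bases apart occurred in 24 of the 32851 windows (0.0731%). The 10 bases that follow the second Cdkn1a match differ from the consensus at 1 position. In the stretches above, the 10 bases just before the Ccng1 match and those just before the Gtse1 match also differ from it at 1 position. A near match beside a match is thus not particular to Cdkn1a. This start is 2790 bases upstream of the second annotated start of Cdkn1a, whose window held 0 half-sites. As a description with no test, of the 327 tested genes with one, 43.4% rose with both constructs together and the median ratio was 0.24 log2, against 46.0% and 0.25 for the 3603 tested genes with windows and no match. After centring (defined below) 16.2% of the former and 21.0% of the latter rose.

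Several facts of the arrays touch every value below. Of 22534 probes, 7689 and 9232 had a value on the arrays of siSelT-1, and 20268 and 18361 on those of siSelT-5. On the 7038 probes shared by all arrays the median ratio lay above 0, by 0.14 log2 on average for siSelT-1 and 0.39 for siSelT-5, or 0.27 over both. Each result is therefore given as deposited and again centred, that is, with the median of these 7038 probes subtracted from each array, which takes the common shift away. The root mean square SD between the 2 arrays of a construct was 0.164 log2 for siSelT-1 and 0.349 for siSelT-5. Of 10 fibroblast markers all had a probe and 9 had a siSelT-1 value, while 0 of 4 epithelial markers with a probe had one. Of the 7 fibroblast markers tested, 4 rose (Pdgfra most, at 0.88 log2) and 2 fell (Fn1 at -0.61 and Dcn at -0.37) with both constructs together. All 3 endothelial markers with a probe were tested and rose, by 0.70 to 0.72 log2, and the macrophage marker Lyz2 stood at -0.20 log2. Of all tested genes 45.7% rose and 8.04% fell, and the part of these markers in the members' ratios was not tested.

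**Figure D1:**
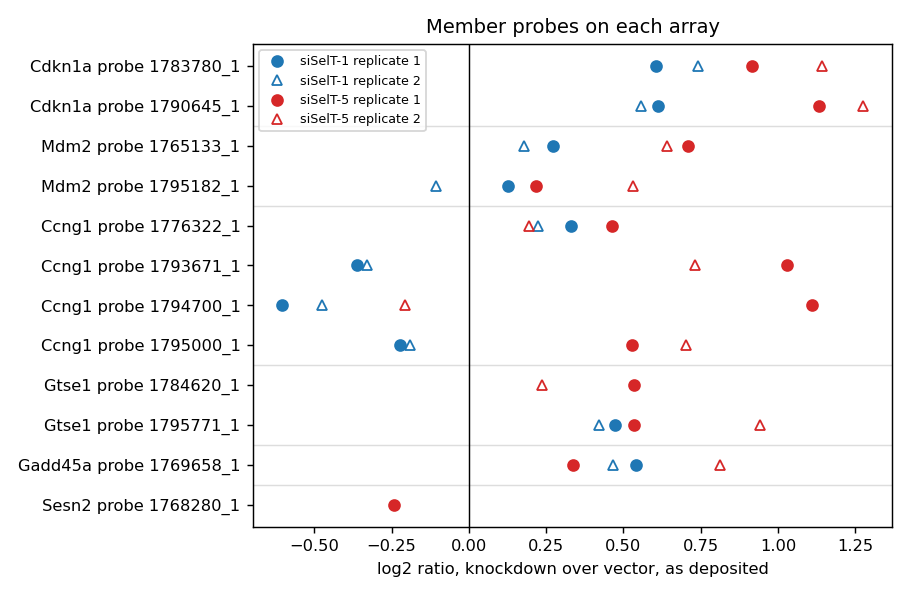
Deposited log2 ratio of knockdown over vector (horizontal axis) for each of the 12 probes of the 6 members that carry a probe (vertical axis). Blue marks siSelT-1 and red siSelT-5, filled circles replicate 1 and open triangles replicate 2; both Cdkn1a probes lie between 0.56 and 1.28 on every array, whereas 3 of the 4 Ccng1 probes are below 0 on both siSelT-1 arrays.

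Cdkn1a, which encodes the cyclin-dependent kinase inhibitor p21 and is the classical arrest target of p53, was higher than vector on every array and at both of its probes. The first probe read 0.61 and 0.74 log2 with siSelT-1 and 0.92 and 1.14 with siSelT-5. The second read 0.61 and 0.56 with siSelT-1 and 1.13 and 1.28 with siSelT-5. As deposited, the siSelT-5 arrays lay above the siSelT-1 arrays at both probes with no overlap, an order that 52.6% of all tested genes showed. Centred, siSelT-1 minus siSelT-5 was -0.10 log2 at the first probe and -0.37 at the second. Neither difference passed (limma, adjusted p = 0.739 and 0.216 over single probes). Averaged over its probes, Cdkn1a stood at 0.87 ± 0.29 log2 (SD, n = 4), a 1.83-fold ratio, and rose with both constructs together (limma, Benjamini-Hochberg adjusted p = 0.00161). It was 196th from the highest of 4754 tested genes. Centred, it stood at 0.61 log2, 1.52-fold, and still passed (adjusted p = 0.00633), and each probe fitted alone passed on both scales, at 0.58 and 0.63 log2 after centring (adjusted p = 0.00897 and 0.00601).

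Each construct was then set against vector on its own. With siSelT-1, Cdkn1a was at 0.63 ± 0.03 log2 (SD, n = 2) and passed (limma, adjusted p = 0.0338), but missed the threshold after centring, at 0.49 log2 (adjusted p = 0.0601). With siSelT-5 it was at 1.12 ± 0.13 log2 (SD, n = 2), 2.17-fold, and passed as deposited (adjusted p = 0.00210) and centred, at 0.72 log2 (adjusted p = 0.0113). Its siSelT-1 value was 0.49 log2 below its siSelT-5 value, with a 95% interval, not adjusted over genes, of -0.88 to -0.09, and this difference did not pass over all genes (adjusted p = 0.0930). With 1 siSelT-1 array left out the adjusted p for siSelT-1 was 0.397 to 0.587. The spread then comes only from the siSelT-5 pair, and limma called 0 of all 4754 genes (390 and 585 at an unadjusted p under 0.05), so this loss is not particular to Cdkn1a.

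Mdm2 encodes the ubiquitin ligase that marks p53 for destruction and so closes the feedback loop, and its probes gave unlike values. The first read 0.27 and 0.18 log2 with siSelT-1 and 0.71 and 0.64 with siSelT-5. The second read 0.13 and -0.11 with siSelT-1 and 0.22 and 0.53 with siSelT-5. As deposited, both show the siSelT-5 arrays above the siSelT-1 arrays, and only the first probe was above 0 on all 4. Fitted alone, the first probe rose with both constructs together (0.45 log2, limma, adjusted p = 0.00665) and the second did not pass (0.19 log2, adjusted p = 0.150). Their average, 0.32 ± 0.25 log2 (SD, n = 4), 1.25-fold, passed as deposited (adjusted p = 0.0198). Centred, it was 0.05 log2 (adjusted p = 0.576), with the first probe at 0.18 (adjusted p = 0.0930) and the second at -0.07 (adjusted p = 0.552). The Mdm2 average thus differed little from the shift common to the shared probes.

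By construct, Mdm2 was at 0.12 ± 0.12 log2 (SD, n = 2) with siSelT-1 (limma, adjusted p = 0.504) and -0.02 after centring. With siSelT-5 it was at 0.52 ± 0.09 log2 (SD, n = 2) and passed as deposited (adjusted p = 0.0124), but stood at 0.13 after centring (adjusted p = 0.350). The difference between constructs was -0.41 log2 (adjusted p = 0.136; unadjusted 95% interval -0.81 to -0.01).

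Ccng1, which encodes cyclin G1, a p53 target that works with a phosphatase to activate MDM2, was the member whose probes and constructs differed most among the 5 tested. Its first probe was above 0 on all arrays, at 0.33 and 0.22 log2 with siSelT-1 and 0.46 and 0.20 with siSelT-5. The second was at -0.36 and -0.33 with siSelT-1 and at 1.03 and 0.73 with siSelT-5. The third was at -0.60 and -0.47 with siSelT-1 and split between the siSelT-5 arrays, at 1.11 and -0.21. The fourth was at -0.22 and -0.19 with siSelT-1 and at 0.53 and 0.70 with siSelT-5. As deposited, the last 3 probes thus lay below 0 on both siSelT-1 arrays, with both siSelT-5 arrays above them, while the first showed overlapping constructs. All 4 probes carry the same RefSeq transcript in the annotation, and which of them reads the transcript best was not tested.

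Averaged over the 4 probes, Ccng1 was at -0.21 and -0.19 log2 with siSelT-1 and at 0.78 and 0.35 with siSelT-5. The average for both constructs, 0.18 ± 0.48 log2 (SD, n = 4), did not pass (limma, adjusted p = 0.167) and turned to -0.08 after centring. With siSelT-5, Ccng1 passed as deposited in the fit of all 4 arrays, at 0.57 ± 0.30 log2 (SD, n = 2, limma, adjusted p = 0.0184). It did not pass after centring, at 0.18 (adjusted p = 0.311). With siSelT-1 it was at -0.20 ± 0.02 log2 (SD, n = 2; adjusted p = 0.342). The difference of the constructs, -0.77 log2 (unadjusted 95% interval -1.26 to -0.28), had the smallest adjusted p of the 5 tested members and did not pass (adjusted p = 0.0655; centred -0.52, adjusted p = 0.162). Probe by probe it was -0.05, -1.23, -0.99 and -0.82 log2, with adjusted p = 0.855, 0.0522, 0.155 and 0.0529 over single probes. With siSelT-5 replicate 1 or 2 left out the difference was -0.56 log2 (adjusted p = 0.0271) or -0.99 (adjusted p = 0.00688). siSelT-5 is then 1 array, and the spread comes only from the siSelT-1 pair, whose SD is smaller. In these settings 1796 and 1789 of all 4754 genes passed, against 3 with all arrays. As single probes in the fit of all 4 arrays, the second and the fourth rose with siSelT-5 as deposited, at 0.88 and 0.62 log2 (limma, adjusted p = 0.00357 and 0.00803). The second also rose after centring, at 0.49 (adjusted p = 0.0275). In a fit of the siSelT-5 arrays with no siSelT-1 array, the second passed (limma, adjusted p = 0.0398) and the fourth did not (adjusted p = 0.0813). Without siSelT-5 replicate 2 the mean of both constructs also passed, at 0.29 log2 (adjusted p = 0.0122), where 2654 of all genes passed as higher.

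Gtse1 encodes a microtubule-associated protein of the G2 and S phases that binds p53 and draws it out of the nucleus. Its probe with values on all arrays read 0.47 and 0.42 log2 with siSelT-1 and 0.53 and 0.94 with siSelT-5, above 0 throughout and with siSelT-5 above siSelT-1. The mean was 0.59 ± 0.24 log2 (SD, n = 4), 1.51-fold, and Gtse1 rose with both constructs together (limma, adjusted p = 0.00503). Centred, it was at 0.33 log2 and just missed the threshold (adjusted p = 0.0508), and the constructs then overlapped. It passed with siSelT-5, at 0.74 ± 0.29 (SD, n = 2; adjusted p = 0.00755; centred 0.35, adjusted p = 0.109). With siSelT-1 it did not, at 0.45 ± 0.04 (SD, n = 2; adjusted p = 0.0814). A second Gtse1 probe had no siSelT-1 value and read 0.53 and 0.24 log2 on the siSelT-5 arrays. Fitted on those arrays alone, at a mean of 0.38 log2, it did not pass (limma, adjusted p = 0.223 over single probes). Of 7460 probes measured on both siSelT-5 arrays and on no siSelT-1 array, whose medians were -0.61 and -0.63, 93.9% lay below this probe's mean.

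Gadd45a encodes a small nuclear protein induced by DNA damage that binds p21 and PCNA and takes part in G2 arrest. Its single probe read 0.54 and 0.47 log2 with siSelT-1 and 0.34 and 0.81 with siSelT-5, so the siSelT-5 arrays lay on either side of the siSelT-1 arrays. Gadd45a rose with both constructs together, at 0.54 ± 0.20 log2 (SD, n = 4), 1.45-fold (limma, adjusted p = 0.00840). Centred, it was at 0.27 log2 and did not pass (adjusted p = 0.0979). With siSelT-5 it passed as deposited, at 0.57 ± 0.34 log2 (SD, n = 2; adjusted p = 0.0211; centred 0.18, adjusted p = 0.379). With siSelT-1 it did not, at 0.50 ± 0.05 (SD, n = 2; adjusted p = 0.0732). The siSelT-5 call was lost without siSelT-5 replicate 2, when Gadd45a stood at 0.34 log2 (adjusted p = 0.0511). The difference of the constructs was -0.07 log2 (adjusted p = 0.825; unadjusted 95% interval -0.59 to 0.44).

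Sesn2, which encodes sestrin 2, a stress-induced inhibitor of mTORC1 signalling, had a value only on siSelT-5 replicate 1, at -0.24 log2, and was not tested. Of the 3559 probes with a value on that array alone, whose median was -1.26, 89.2% were lower.

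**Figure D2:**
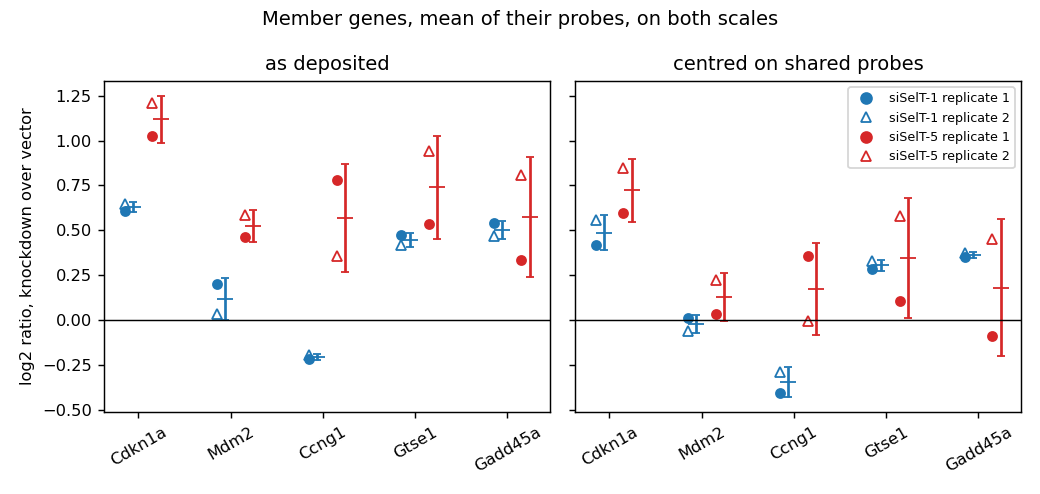
Log2 ratio of knockdown over vector (vertical axis) of the 5 tested members on each array, as deposited on the left and with every array centred on the shared probes on the right. Points are arrays, blue for siSelT-1 and red for siSelT-5, and bars give the mean ± SD (n = 2); after centring only Cdkn1a stays above 0.4 on all 4 arrays.

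Set side by side, the deposited ratios of both constructs ran from Cdkn1a (0.87 log2) through Gtse1 (0.59), Gadd45a (0.54) and Mdm2 (0.32) to Ccng1 (0.18). Gtse1 and Gadd45a, neighbours in that order, were 0.05 log2 apart, less than the SD of either. 4 of the 5 tested members rose and 0 fell with both constructs together as deposited, where 45.7% of all 4754 genes rose and 8.04% fell. Centred, 1 of 5 rose and 0 fell, where 20.5% of all genes rose and 21.9% fell. On 4 of 4 arrays above 0 were 4 of the 5 members and 44.9% of all genes, or 2 of 5 and 25.2% after centring. The centred count of 1 of 5 was near the share of all genes that rose. That member was Cdkn1a, which passed on both scales, and the calls of Mdm2, Gtse1 and Gadd45a held only on the deposited scale. The calls of Mdm2, Gtse1 and Gadd45a were lost when either siSelT-1 array was left out, and that of Cdkn1a when replicate 1 was. Without siSelT-1 replicate 1, limma called 0 of the 4754 genes (1846 at an unadjusted p under 0.05), with Cdkn1a at 0.88 log2 (adjusted p = 0.0515), Gtse1 at 0.58 (0.0724), Gadd45a at 0.52 (0.0942) and Mdm2 at 0.28 (0.181). Without siSelT-1 replicate 2, Cdkn1a passed (adjusted p = 0.0407), and Gtse1 (0.0612), Gadd45a (0.0766) and Mdm2 (0.106) did not, where 807 of all genes rose and 66 fell.

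For siSelT-1 against vector in the fit of all 4 arrays, 1 of 5 members rose and 0 fell, where 10.3% of all genes rose and 3.37% fell. Centred, 0 of 5 passed in limma (2 had an unadjusted p under 0.05), where 3.83% of all genes rose and 5.07% fell. With array weights, an alternative that trusts the less variable arrays more, 3 of 5 rose with siSelT-1 (Cdkn1a, Gadd45a and Gtse1), where 29.8% of all genes did. For siSelT-5 against vector in the fit of all 4 arrays, 5 of 5 rose and 0 fell, where 47.6% of all genes rose and 6.29% fell. Centred, 1 of 5 rose and 0 fell with siSelT-5, where 19.2% of all genes rose and 20% fell. Leaving out either siSelT-1 array, which lowers the residual degrees of freedom of the shared fit, left Cdkn1a and Gtse1 called for siSelT-5 and took away Mdm2 (adjusted p = 0.0565), Ccng1 (0.0717) and Gadd45a (0.0760), where 1475 of all 4754 genes rose and 148 fell. A fit of the siSelT-5 arrays with no siSelT-1 array called Cdkn1a alone of the 5 (adjusted p = 0.0208), with the others at 0.0770 to 0.0991. Of the 9711 genes in that fit, 1077 rose and 1721 fell.

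Counted by probe, 6 of the 10 member probes with values on all arrays rose with both constructs together as deposited, where 44.3% of all 6251 such probes did. These were both Cdkn1a probes and 1 probe each of Mdm2, Ccng1, Gtse1 and Gadd45a. Centred, only the 2 Cdkn1a probes of the 10 rose, where 20.3% of all probes did. With siSelT-1 the same 2 probes rose as deposited, where 8.01% did, and 0 of 10 passed in limma after centring, where 3.04% rose. With siSelT-5, 7 of 10 rose as deposited, where 46.7% did. Centred, 3 of 10 did so (both of Cdkn1a and the second of Ccng1), where 19.5% of all probes rose.

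In the test of siSelT-1 minus siSelT-5, 0 of 5 members passed (3 had an unadjusted p under 0.05), where 0.021% of all genes were higher with siSelT-1 and 0.0421% lower. As deposited, both siSelT-5 arrays lay above both siSelT-1 arrays for 4 of 5 members (Cdkn1a, Mdm2, Ccng1 and Gtse1) and for 52.6% of all genes. Centred, this held for 3 of 5 and 32% of all genes. The opposite order, siSelT-1 above siSelT-5 on all arrays, was found for 0 of 5 members on either scale, beside 11.9% of all genes as deposited and 28.3% centred. Without siSelT-5 replicate 1, the difference passed for Cdkn1a (-0.58 log2, adjusted p = 0.0239), Ccng1 (-0.56, 0.0271) and Gtse1 (-0.50, 0.0408), but in that setting 464 of all 4754 genes passed as higher with siSelT-1 and 1332 as lower. siSelT-5 is then 1 array, and the spread comes from the siSelT-1 pair alone.

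**Figure D3:**
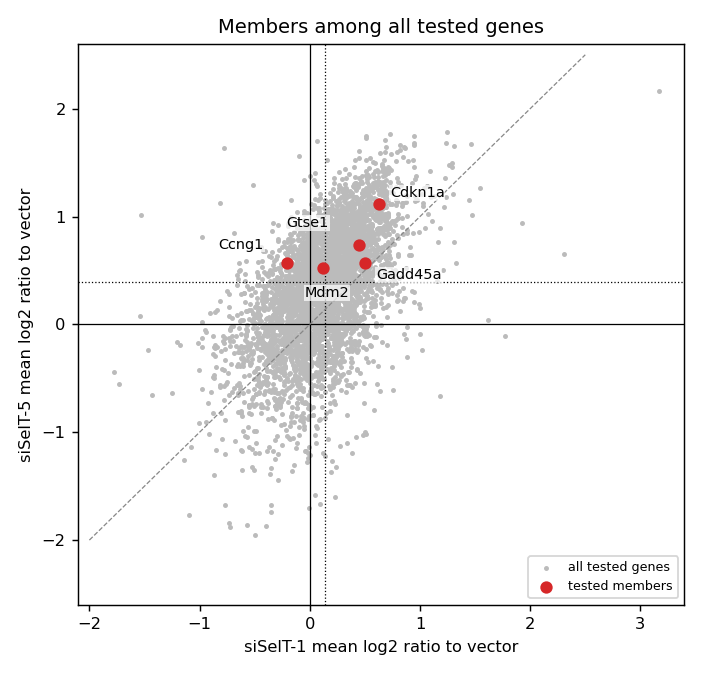
Mean log2 ratio with siSelT-1 (horizontal axis) against siSelT-5 (vertical axis) for the 4754 tested genes in grey and the 5 tested members in red. Solid lines mark 0, dotted lines the mean shift of the shared probes (0.14 and 0.39) and the dashed line equal ratios. Ccng1 alone of the 5 lies to the left of 0. All 5 lie above the dashed line, as does the crossing of the dotted lines. Centred, Gadd45a was higher with siSelT-1 than with siSelT-5 (0.36 against 0.18 log2).

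The genes whose 4 ratios were closest to those of Cdkn1a, by Euclidean distance over the 4 arrays, were Pelo (distance 0.0524), Dcaf13 (0.0635) and Ppp1r18 (0.0782). Pelo, which encodes a ribosome rescue factor, read 0.61 and 0.61 log2 with siSelT-1 and 1.00 and 1.20 with siSelT-5. Of the 4754 tested genes, 378 lay within 0.5 log2 units of Cdkn1a's pattern and 1414 within 1.

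The wider p53 pathway was read from 6 lists of 137 genes, of which 117 had a named probe and 59 were tested. Of these 59, 33 rose and 8 fell with both constructs together as deposited (55.9% and 13.6%, beside 45.7% and 8.04% of all 4754 genes), with a median of 0.26 log2 beside 0.25. Centred, 12 rose and 13 fell (20.3% and 22.0%, beside 20.5% and 21.9%), with a median of -0.0038 log2 beside -0.02. With siSelT-1 the median of the lists was 0.13 log2 beside 0.14 for all genes, and with siSelT-5 it was 0.40 beside 0.37. The medians, and after centring the shares, lay near those of the whole table, while as deposited both shares were above them; no test of the lists was made. Without siSelT-1 replicate 1 limma called 0 of the 59, as of all genes (1846 of which had an unadjusted p under 0.05). With siSelT-1 replicate 2 left out, 7 of the 59 passed as higher and 3 as lower, and of all 4754 genes 807 and 66.

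Of 10 tested regulators of p53, 6 rose and 1 fell as deposited, and 2 rose and 2 fell after centring (medians 0.25 and -0.01 log2; of all genes 45.7% rose and 8.04% fell, and centred 20.5% and 21.9%). Trim28, a corepressor that helps MDM2 inactivate p53, was at 0.77 ± 0.44 log2 (SD, n = 4) and rose on both scales (limma, adjusted p = 0.00271; centred 0.51, adjusted p = 0.0162). Hipk2, a kinase that phosphorylates p53 for its pro-apoptotic activity, was at 0.62 ± 0.27 (adjusted p = 0.00398, centred 0.35 with 0.0399). By construct after centring it stood at 0.67 log2 with siSelT-1 and 0.04 with siSelT-5 (limma, adjusted p = 0.0511 and 0.855). Trp53inp1, a stress-induced p53 target that feeds back on p53 and acts in autophagy, fell, at -0.54 ± 0.48 log2 (adjusted p = 0.0173; centred -0.81, 0.00872). Its arrays read -0.89 and -0.85 with siSelT-1 and 0.14 and -0.57 with siSelT-5. Trp53inp2 was at 0.47 ± 0.43 and rose as deposited (adjusted p = 0.00522; centred 0.20, 0.0788).

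Of 9 tested arrest targets beside the members, 5 rose and 0 fell as deposited, and 1 rose and 1 fell after centring (medians 0.41 and 0.15 log2; of all genes 45.7% rose and 8.04% fell, and centred 20.5% and 21.9%). Ccnd1, which encodes cyclin D1 and drives entry into S phase, was at 0.80 ± 0.55 log2 (SD, n = 4) and rose on both scales (limma, adjusted p = 0.00190; centred 0.53, 0.00768). Pcna, the sliding clamp of DNA polymerases to which p21 binds, read -0.01 and -0.03 log2 with siSelT-1 and 0.86 and 1.20 with siSelT-5. It rose as deposited, at 0.50 ± 0.62 (SD, n = 4; adjusted p = 0.00697), and missed the threshold after centring, at 0.24 (0.0971), and its difference between constructs, -1.05 log2, did not pass (adjusted p = 0.0543). Phlda3, a repressor of AKT, was at 0.48 ± 0.33 (adjusted p = 0.00658; centred 0.21, 0.0696), and Plk2, a stress-responsive kinase, at 0.43 ± 0.38 (0.00737; centred 0.16, 0.149). The gene that fell after centring was Btg2, an antiproliferative p53 target, at -0.56 and -0.76 log2 with siSelT-1 and 0.23 and 0.49 with siSelT-5 (centred mean -0.42, adjusted p = 0.0174); it was singled out after its values were seen.

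Of 10 tested apoptosis targets and BCL2 family genes, 6 rose and 0 fell as deposited, and 2 rose and 0 fell after centring (medians 0.36 and 0.10 log2; of all genes 45.7% rose and 8.04% fell, and centred 20.5% and 21.9%). Dcxr, a carbonyl reductase of the list, was at 1.07 ± 0.34 log2 (SD, n = 4) and Siva1, a pro-apoptotic p53 target, at 0.72 ± 0.14; both rose on both scales (limma, adjusted p = 0.00161 and 0.00193; centred 0.81 and 0.45, adjusted p = 0.00430 and 0.00856). Mcl1, an anti-apoptotic BCL2 family member, was at 0.50 ± 0.50 (adjusted p = 0.0108; centred 0.24, 0.114), and Ei24 at 0.36 ± 0.28 (0.0173; centred 0.10, 0.355). The BH3-only genes Bbc3 and Pmaip1, main effectors of p53-driven apoptosis, lacked values on part of the arrays and were not tested. The fuller Bbc3 probe read -0.56 log2 on siSelT-1 replicate 2 and -1.12 and -1.27 on the siSelT-5 arrays, and the fuller Pmaip1 probe read -0.22 and -0.19 with siSelT-1 and -1.78 on siSelT-5 replicate 1. Both were singled out after their values were seen. Low siSelT-5 readings were common where both siSelT-1 values were missing. The 7460 probes of that kind read on both siSelT-5 arrays had medians of -0.61 and -0.63 log2. The fuller Bbc3 and Pmaip1 probes lie outside that class, and a fall of either gene was not tested. Casp9 probes, untested too, read 0.83, 0.68 and -1.33 log2 on siSelT-5 replicate 1, and 0.08, -0.36 and -1.51 on replicate 2.

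Of 12 tested metabolism and repair targets, 6 rose and 3 fell as deposited, and 2 rose and 5 fell after centring (medians 0.19 and -0.07 log2; of all genes 45.7% rose and 8.04% fell, and centred 20.5% and 21.9%). Sesn3 and Sesn1 are the relatives of Sesn2. Sesn3 was at 0.94 ± 0.40 log2 (SD, n = 4) and rose on both scales (limma, adjusted p = 0.00161; centred 0.67, 0.00497). Sesn1 read 0.41, 0.30, 0.40 and 0.41 log2 on the 4 arrays and rose as deposited (adjusted p = 0.00988), but stood at 0.11 after centring (0.229). Ephx1, which encodes microsomal epoxide hydrolase, was at 0.96 ± 0.43 and rose on both scales (adjusted p = 0.00161; centred 0.69, 0.00521). Thbs1, the gene of the secreted angiogenesis inhibitor thrombospondin 1, fell, with -1.13 and -1.06 log2 for siSelT-1 and -1.43 and -2.09 for siSelT-5 (mean -1.43 ± 0.47, SD, n = 4; adjusted p = 0.00161; centred -1.70, 0.00413).

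Of 7 tested genes of the other cyclin-dependent kinase inhibitors and the RB pathway, 5 rose and 1 fell as deposited, and 2 rose and 1 fell after centring (medians 0.41 and 0.15 log2; of all genes 45.7% rose and 8.04% fell, and centred 20.5% and 21.9%). Cdkn2c, which encodes the CDK4 and CDK6 inhibitor p18, was at 0.75 ± 0.31 log2 (SD, n = 4) and rose on both scales (limma, adjusted p = 0.00195; centred 0.48, 0.0102). The D-type cyclin gene Ccnd3 was at 0.59 ± 0.20 and also rose on both (adjusted p = 0.00374; centred 0.33, 0.0346), and Ccnd2 was at 0.43 ± 0.25 (0.00841; centred 0.16, 0.165). E2f3, a transcription factor that RB restrains, fell, at -0.49 ± 0.21 (adjusted p = 0.00806; centred -0.76, 0.00497). The only tested inhibitor gene of this list was Cdkn2c.

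Of 11 tested growth arrest specific and stress-induced genes, 5 rose and 3 fell as deposited, and 3 rose and 4 fell after centring (medians 0.21 and -0.06 log2; of all genes 45.7% rose and 8.04% fell, and centred 20.5% and 21.9%). Nupr1, a chromatin protein induced by stress, read -1.15 and -1.02 log2 with siSelT-1 and -1.06 and -1.22 with siSelT-5, and fell (mean -1.11 ± 0.09, SD, n = 4; limma, adjusted p = 0.00161; centred -1.38, 0.00413). Klf6, a transcription factor that can raise p21, fell as well, at -0.60 ± 0.10 (adjusted p = 0.00305; centred -0.87, 0.00442). Ddit3, the CHOP factor of the endoplasmic reticulum stress response, was at 0.55 ± 0.39 and rose on both scales (adjusted p = 0.00314, centred 0.28 with 0.0307). Gas8 did so too, at 0.53 ± 0.40 (0.00674, centred 0.27 with 0.0493). By construct after centring, Gas8 stood at 0.71 log2 with siSelT-1 and -0.17 with siSelT-5 (limma, adjusted p = 0.0363 and 0.269). Ddit3 stood at 0.08 and 0.49 (adjusted p = 0.643 and 0.0201).

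58 pathway genes with a named probe were not tested because no probe of theirs had a value on all 4 arrays. Of their 91 probes 78 had no siSelT-1 value, and the 54 of these with values on both siSelT-5 arrays had medians of -0.67 and -0.64 log2, beside -0.61 and -0.63 for all 7460 such probes. Cdkn2a, whose locus NIH 3T3 cells lack, was listed with -1.25 log2 on siSelT-5 replicate 1 alone. Negative siSelT-5 values of probes with no siSelT-1 value, Mdm4 among them (its 3 probes at -0.12 to -0.89 on those arrays), are therefore given as values only.

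**Figure D4:**
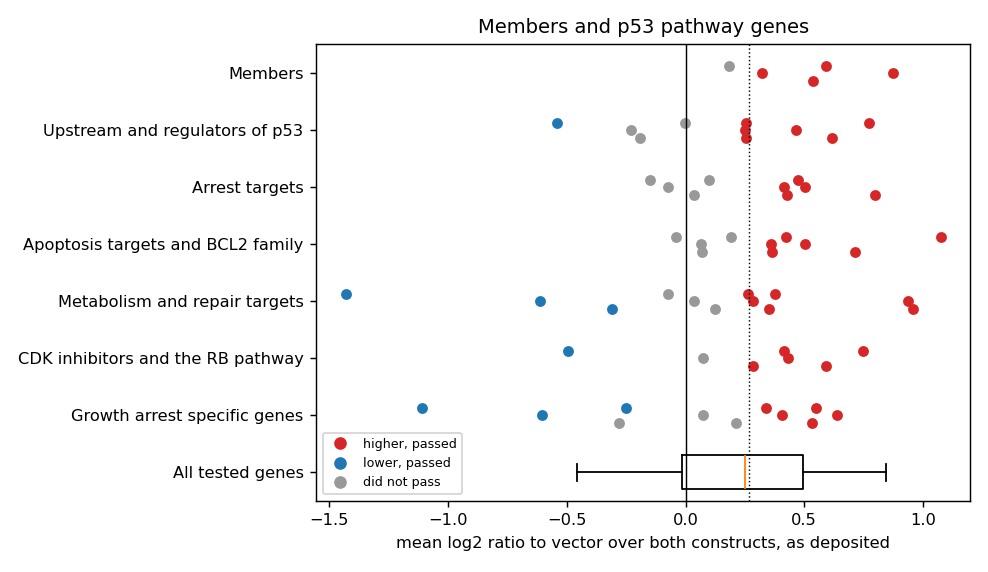
Log2 ratio of both constructs over vector, as deposited (horizontal axis), of the 5 tested members and the tested genes of 6 p53 pathway lists. Red points passed the test as higher, blue as lower, grey did not pass; the box gives the quartiles of all 4754 tested genes with whiskers from the 5th to the 95th percentile, and the dotted line marks the mean shift of the shared probes, 0.27. Thbs1 and Nupr1 lie lowest, at -1.43 and -1.11.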

How the data were processed

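The authors deposited 1 table of log ratios (read here as log2) from 4 two-colour arrays; background correction, normalization, filter and log base are not given in the sources used here. Per the labels, Cy5 carried knockdown and Cy3 vector RNA on every array, so any dye bias of a probe stays in its ratio to vector, and whether variation between vector cultures enters the spread is not known. Of 22534 probes, 18129 carried 1 gene name, 140 several and 4265 none; 18041 matched GRCm38.p6 through Entrez identifiers, and 0 symbols changed.

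A gene was the mean of its probes with a value on all 4 arrays (4754 genes); signal strength, by which probes could be ranked, was not used here. limma 3.58.1 in R 4.3.3 fitted 2 group means with 2 residual degrees of freedom (two-sided, Benjamini-Hochberg over all tested genes, threshold 0.05); the code was tested on simulated data. The simulated data had equal spread in both constructs, so they do not show how the fit behaves when the spreads differ. The number of arrays limits the precision.

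Named genes were all members, up to 4 genes per list by unadjusted p among those that passed for both constructs on either scale, and the 3 genes nearest to Cdkn1a. Btg2, Bbc3, Pmaip1, Mdm4, Cdkn2a and the cell type markers were named outside this rule, after their values were seen. Members and lists were chosen with earlier results of these data known, and the promoter search was added afterwards. Alternatives were centring, single probes, looser filters on missing values, array weights, unnamed probes, a replicate block, robust eBayes and each array left out.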

Additional observations from a re-analysis of the deposited data

Results flagged for a closer look

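Ccng1 and 2 of its 4 probes had both siSelT-1 arrays below 0 and both siSelT-5 arrays above 0 as deposited. For the gene, the average over its probes gave siSelT-1 minus siSelT-5 at -0.77 log2 (limma, adjusted p = 0.0655). For the second probe the difference was -1.23 log2 (adjusted p = 0.0522 over single probes), and for the fourth it was -0.82 log2 (adjusted p = 0.0529). In each case the opposite signs are a description, and the test of the difference did not pass. Centred, siSelT-5 replicate 2 of the gene average lay at -0.0061 log2, so the opposite signs of the gene do not hold on that scale.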

How the results depend on the processing

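Under the alternatives, 214 member results kept their direction and side of the threshold, 12 newly passed, 44 no longer passed and 15 turned sign; of the named pathway genes' results 241 kept both, 58 no longer passed and 1 turned. The cause was not tested. Centring turned Ccng1 with both constructs to -0.084 log2, Mdm2 with siSelT-1 to -0.022 and the Gadd45a difference to 0.18, also 0.17 without siSelT-5 replicate 2. Single probes turned Ccng1 to -0.044 (the third probe, both) and 0.28 (the first, siSelT-1). Single probes after centring, added after seeing the data, gave the second Mdm2 probe at -0.075, -0.13 and -0.019 (both, siSelT-1, siSelT-5), Ccng1 at -0.31 (the third) and -0.063 (the fourth) for both and at 0.14, -0.065 and 0.20 (the first, with siSelT-1, siSelT-5 and their difference), Gadd45a at 0.18 and a Ccnd2 probe at -0.038. Genes higher and lower in limma numbered 2172 and 382 for both constructs, 490 and 160 with siSelT-1, 2264 and 299 with siSelT-5, and 1 and 2 in the difference. Centring gave 976 and 1039, 182 and 241, and 915 and 949 for the first 3. Centred single probes gave 1268 and 1346, 190 and 308, 1219 and 1234, and 2 higher for the difference. A value on 1 array of each construct gave 42 and 25 for siSelT-1, 458 lower for siSelT-5 and 0 higher for the difference (1722 genes at an unadjusted p under 0.05). In that setting 0 members passed with siSelT-1 (limma, lowest adjusted p = 0.0614), so the Cdkn1a call was lost. Array weights gave 1419 and 501 for siSelT-1, where Cdkn1a, Gadd45a and Gtse1 passed, and 42 and 237 for the difference. siSelT-5 fitted alone gave 1077 and 1721, and unnamed probes 0 higher for the difference (1923 at an unadjusted p under 0.05). Arrays of 1 replicate number did not deviate together (r = 0.0758), so the numbers are not read as pairs. With 2 arrays per construct this is 1 value, because both replicate numbers must give the same r. The replicate block gave 25 and 10 for siSelT-1 in limma, with Cdkn1a lost (adjusted p = 0.0537). For the difference it gave 0 and 0 (1674 at an unadjusted p under 0.05), and member calls in the other contrasts stayed the same. Leaving out 1 array gave 0 to 2654 higher and 0 to 700 lower for both constructs, 0 to 1538 and 0 to 551 with siSelT-1, 1475 to 2629 and 148 to 625 with siSelT-5, and 0 to 464 and 0 to 1491 for the difference, with 0 for a contrast when a siSelT-1 array was left out (390 to 1846 at an unadjusted p under 0.05). Trp53, Bax and Sesn2 gave no value to recompute.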
